A study of Caenorhabditis elegans with 12 samples.

Results

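The 7 genes E01G4.5, E01G4.7, C44B11.6, K02E2.6, C40A11.10, H16D19.4 and F39E9.7 are targets of the small RNAs of the ERGO-1 26G pathway in Caenorhabditis elegans. They were taken by sequence name through the WormBase annotation, and all 7 were found among the 46726 gene identifiers of the count table. Small RNA came from adult whole animals grown at 20 °C, in 12 samples, 3 for each of 4 groups. The control strain YY1312 carried hrde-1(gg594) and the mutant strain YY1192 carried hrde-1(gg594) with hrde-2(gg517), so that every group had the gg594 allele (what it changes in hrde-1 is not stated in the labels). The titles of the control samples call them wild-type. Each strain ate bacteria with either oma-1 dsRNA, against a gene of maturing oocytes, or L4440 dsRNA, from the vector without a worm gene. HRDE-1 is a germline nuclear Argonaute needed to inherit RNAi, and HRDE-2 is needed for the same inheritance.

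In the ERGO-1 pathway the RNA-dependent RNA polymerase RRF-3, with Dicer and the ERI proteins, makes 26G RNAs in oocytes and embryos. The Argonaute ERGO-1 binds them and directs them to mRNAs, pseudogenes and other transcripts. Further RNA-dependent RNA polymerases then copy these targets into 22G RNAs, which are loaded onto other Argonautes. One of these, NRDE-3, carries 22G RNAs into the nuclei of somatic cells and represses transcription there. HRDE-1 has the corresponding place in the germline, so that the 7 genes are mainly known as targets of the somatic arm.

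The deposited table held 1 pooled column of reads per group, so the spread between replicate samples is unknown. The columns are called by strain and food, control/L4440, control/oma-1, hrde-2/L4440 and hrde-2/oma-1. They held 25323188, 34238988, 39077097 and 16057238 reads assigned to genes, in that order. Of these, the 7 genes took 0.00901, 0.00974, 0.0298 and 0.0189%. Levels are given as CPM, read counts per library size after scaling with the trimmed mean of M values (TMM), with exact 95% Poisson intervals. Intervals reflect counting alone, and since PCR copies reads they are a lower limit of the error. Read length is not in the table, so 26G and 22G RNAs were counted together. Per the labels, all control libraries had the same 5′ barcode and all hrde-2 libraries another, so that barcode and genotype cannot be told apart.

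The 7 loci are of different kinds in the WBcel235 annotation. E01G4.5 (WBGene00008447, chromosome II, 13472401 to 13473995, plus strand) is protein-coding, with 6 exon blocks. E01G4.7 (WBGene00045410, chromosome II, 13477471 to 13478929, plus strand) is a pseudogene that starts 3475 bases after E01G4.5 ends, with 0 other annotated genes between them. C44B11.6 (WBGene00016635, chromosome III, 3153148 to 3153336, plus strand) is a protein-coding gene of 1 exon and 189 bases. K02E2.6 (WBGene00010507, chromosome V, 20380561 to 20382036, plus strand) is protein-coding with 3 transcripts.

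The other 3 loci lie on the minus strand. C40A11.10 (WBGene00016553, chromosome II, 2136552 to 2137329) is annotated there as the miRNA gene cel-mir-8199, with 5 transcripts. H16D19.4 (WBGene00010402, chromosome I, 12641603 to 12642187) and F39E9.7 (WBGene00018199, chromosome II, 3306144 to 3307505) are pseudogenes. The span of F39E9.7 holds the miRNA gene mir-260 and other noncoding RNA genes, and that of K02E2.6 holds the noncoding RNA K02E2.12, which had 0 reads in every column. Reads assigned to no single gene were left out, so reads matching 2 overlapping genes may be missing from both. The 0 reads of K02E2.12 therefore do not tell whether it took reads from K02E2.6. In all, the 7 genes comprise 3 protein-coding genes, 3 pseudogenes and 1 miRNA gene. No gene with 1000 or more reads had reads near-equal to those of E01G4.5, E01G4.7, C44B11.6 or K02E2.6, the 4 members with enough reads for this comparison.

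**Figure D1:**
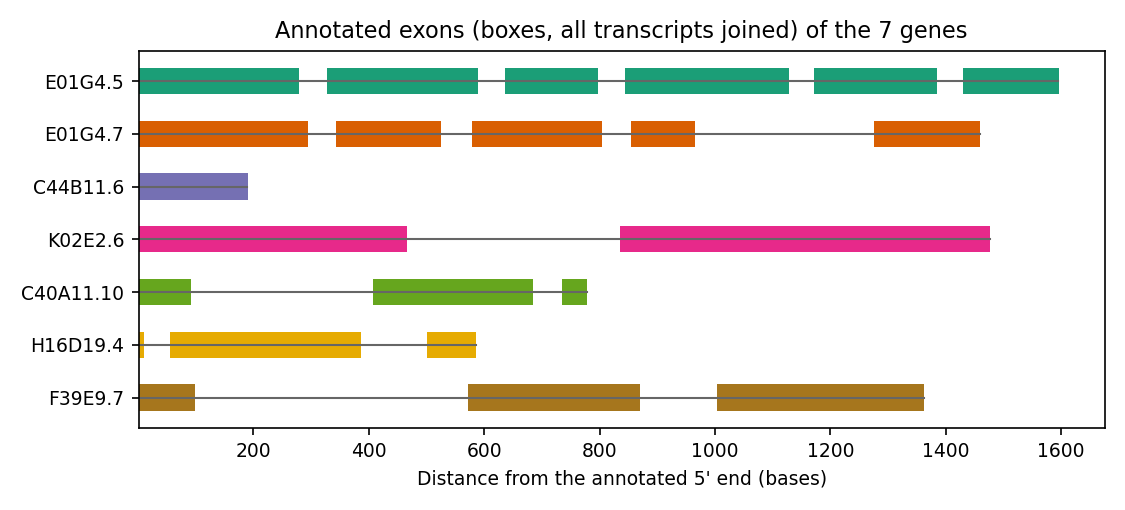
Exon blocks of the 7 genes in the WBcel235 annotation, all transcripts joined, drawn by distance in bases from the annotated 5′ end. C44B11.6 is a single block of 189 bases, and E01G4.5 has 6 blocks.

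The most reads fell on C44B11.6, in every group. It had 714 reads in control/L4440, 1130 in control/oma-1, 5701 in hrde-2/L4440 and 1423 in hrde-2/oma-1. On the CPM scale these levels were 43.6 (40.5 to 46.9), 49.6 (46.7 to 52.5), 85.4 (83.2 to 87.7) and 65.2 (61.8 to 68.7). Both hrde-2 columns lay above both control columns, and the intervals did not overlap between genotypes.

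K02E2.6 came next, with 488, 711, 3407 and 829 reads in the same order of groups. Its levels were 29.8 (27.2 to 32.6), 31.2 (28.9 to 33.6), 51.1 (49.4 to 52.8) and 37.97 (35.4 to 40.6) CPM. Like C44B11.6, it stood higher in both hrde-2 columns than in both control columns.

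On this scale the tandem neighbours E01G4.5 and E01G4.7 had the opposite order. E01G4.5 had 334, 475, 654 and 205 reads, which is 20.4 (18.3 to 22.7), 20.8 (19.0 to 22.8), 9.80 (9.06 to 10.6) and 9.39 (8.15 to 10.8) CPM. E01G4.7 had 427, 643, 1198 and 358 reads, which is 26.1 (23.7 to 28.7), 28.2 (26.1 to 30.5), 17.95 (16.95 to 19.0) and 16.4 (14.7 to 18.2) CPM. Both genes were lower in both hrde-2 columns, and within a genotype the intervals of the 2 foods overlapped.

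C40A11.10 showed the widest gap between genotypes on the TMM scale. It had 152, 192, 189 and 71 reads, or 9.28 (7.86 to 10.9), 8.42 (7.27 to 9.70), 2.83 (2.44 to 3.27) and 3.25 (2.54 to 4.10) CPM. F39E9.7 had 153, 170, 422 and 118 reads, or 9.34 (7.92 to 10.9), 7.46 (6.38 to 8.66), 6.32 (5.74 to 6.96) and 5.40 (4.47 to 6.47) CPM. For F39E9.7 the intervals of control/oma-1 and hrde-2/L4440 overlapped. Inside its span, mir-260 had 21, 23, 197 and 58 reads of its own. The noncoding RNA F39E9.21 had 49, 63, 162 and 79 there, F39E9.16 had 25, 42, 87 and 18, and F39E9.20 had 5, 12, 1 and 3. The labels do not say whether strand was used to tell reads of overlapping genes apart.

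H16D19.4 was barely covered, with 14, 14, 83 and 29 reads. Its levels of 0.855 (0.467 to 1.43), 0.614 (0.336 to 1.03), 1.24 (0.991 to 1.54) and 1.33 (0.890 to 1.91) CPM lay under the 5 CPM used as the least level for comparing single columns. The other 6 genes reached that level in at least 1 column.

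**Figure D2:**
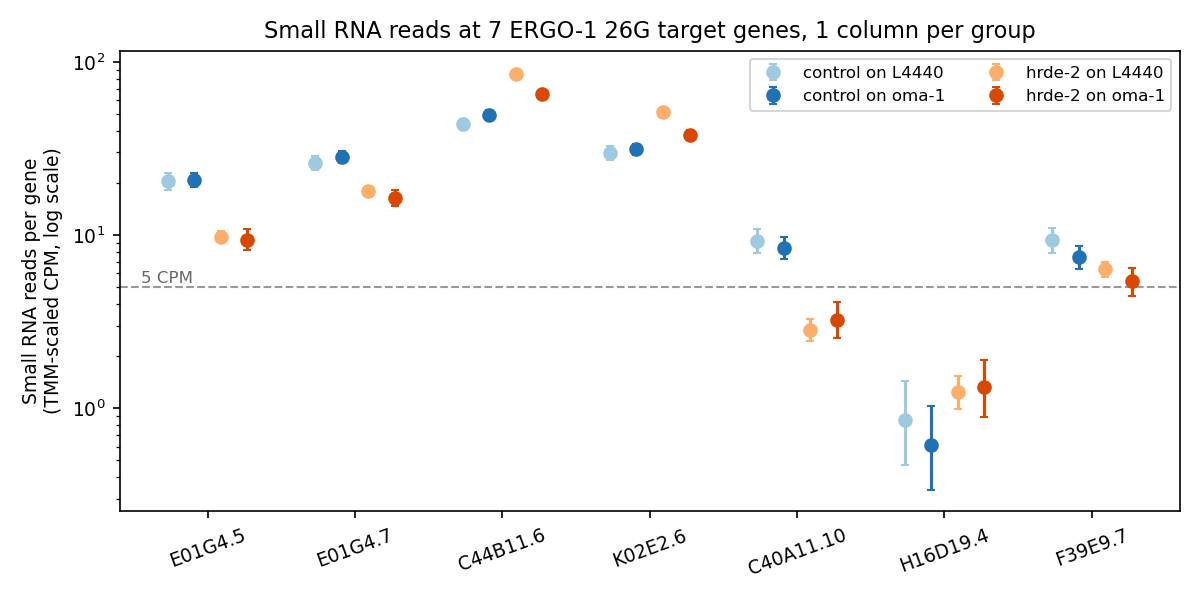
Small RNA level of each of the 7 genes in the 4 columns, as TMM-scaled CPM on a log axis, with exact 95% Poisson intervals; the dashed line marks 5 CPM. C44B11.6 and K02E2.6 are highest in the hrde-2 columns, E01G4.5, E01G4.7 and C40A11.10 are lowest there, and H16D19.4 stays under the line.

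Levels of different genes were compared per kilobase of joined exons. C44B11.6 stood at 231 CPM per kilobase in control/L4440, 262 in control/oma-1, 452 in hrde-2/L4440 and 345 in hrde-2/oma-1. By reads per kilobase it took place 21, 20, 2 and 4 among the protein-coding genes that are not marked as sharing reads with others. This density rests on an annotated length of 189 bases, and the labels do not name the annotation that the authors counted against.

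In control/L4440 the order below C44B11.6 was K02E2.6 at 26.9 CPM per kilobase (24.6 to 29.4), E01G4.7 at 26.2 (23.8 to 28.8), C40A11.10 at 22.5 (19.0 to 26.3), E01G4.5 at 14.9 (13.4 to 16.6), F39E9.7 at 12.4 (10.5 to 14.5) and H16D19.4 at 2.01 (1.10 to 3.37). K02E2.6, E01G4.7 and C40A11.10 could not be separated by their counting intervals, nor could E01G4.5 and F39E9.7. In hrde-2/L4440, K02E2.6 at 46.1 CPM per kilobase (44.6 to 47.7) stood apart from E01G4.7 at 18.03 (17.0 to 19.1). E01G4.5, C40A11.10 and F39E9.7 then lay close together, at 7.18, 6.86 and 8.37, and the intervals of these 3 genes all overlapped. H16D19.4 was the lowest in every column, and even so it lay above 92.1, 88.5, 95.2 and 95.4% of the unshared protein-coding genes per kilobase. The other 6 genes lay above at least 97.86% of them in every column.

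The first comparison asks which of the 7 genes had more or fewer small RNAs in hrde-2 mutants. Averaged over both foods, C40A11.10 fell by 1.54 on the log2 scale, to 0.344 of the control level, and E01G4.5 fell by 1.10, to 0.466 of it. In edgeR's quasi-likelihood test with Benjamini-Hochberg adjustment over all 16329 features, their adjusted p-values were 6.94e-07 and 0.00568. C40A11.10 is annotated as a miRNA gene, and read length is unknown. Its reads may therefore include a miRNA, so its fall cannot be assigned to the small RNAs of the pathway. The other 5 genes did not pass. Among these, H16D19.4 (0.81), C44B11.6 (0.68) and K02E2.6 (0.53) had values above 0, and F39E9.7 (−0.51) and E01G4.7 (−0.66) below 0, with adjusted p-values of 0.0912, 0.225, 0.342, 0.202 and 0.179.

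Among the 7 genes 2 were thus called lower and 0 higher, while over all features 18.7% were called, 9.7% lower and 8.95% higher. At an unadjusted p under 0.05 there were 3, with H16D19.4 as the third, but the share of all features at that limit was not counted. DESeq2 called 2, with adjusted p-values of 0.00394 for C40A11.10 and 0.0332 for E01G4.5, and did not call H16D19.4. The DESeq2 counts over all features are given in the closing paragraph. The fit treats the 2 foods as the repeats of a genotype and leaves 1 residual degree of freedom, so the spread is shared across features almost wholly. In whole animals, fewer cells of a type and less small RNA per cell cannot be told apart.

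The calls depended on how the columns were scaled. The scale of hrde-2/L4440 relative to control/L4440 was 4.07 under TMM, 4.07 under DESeq2 size factors and 3.97 under the summed reads of miRNA genes other than C40A11.10. It was 2.33 under the authors' deposited factors and 1.54 under gene-assigned reads alone. With the authors' factors C44B11.6 (1.37), K02E2.6 (1.21) and H16D19.4 (1.48) were called higher, C40A11.10 (−0.86) was called lower, and E01G4.5 (−0.42, adjusted p = 0.348 with edgeR) was not called. With gene-assigned reads alone the same 3 genes were called higher and none lower, E01G4.5 turning to 0.11. Most of all features were then called higher too, and with the authors' factors far more features were called higher than lower. The counts over all features are given in the closing paragraph. With a filter of 10 CPM or more in 3 or more columns, C44B11.6 (1.57) and K02E2.6 (1.42) were called higher, E01G4.5 stood at −0.22 (adjusted p = 0.726 with edgeR), and C40A11.10 was not tested. Of 1149 unshared protein-coding genes, 12.8% were at least 2-fold higher under TMM and 25.5% with the authors' factors. This share was 43.9% with gene-assigned reads alone and 30.9% with that filter. The median of these 1149 genes moved along, from −0.34 under TMM to 0.35 with the authors' factors and 0.87 with gene-assigned reads alone. C44B11.6, K02E2.6 and H16D19.4 lay above that median and the other 4 genes below it under each of these 5 scalings, an order that a change of scale hardly alters.

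**Figure D3:**
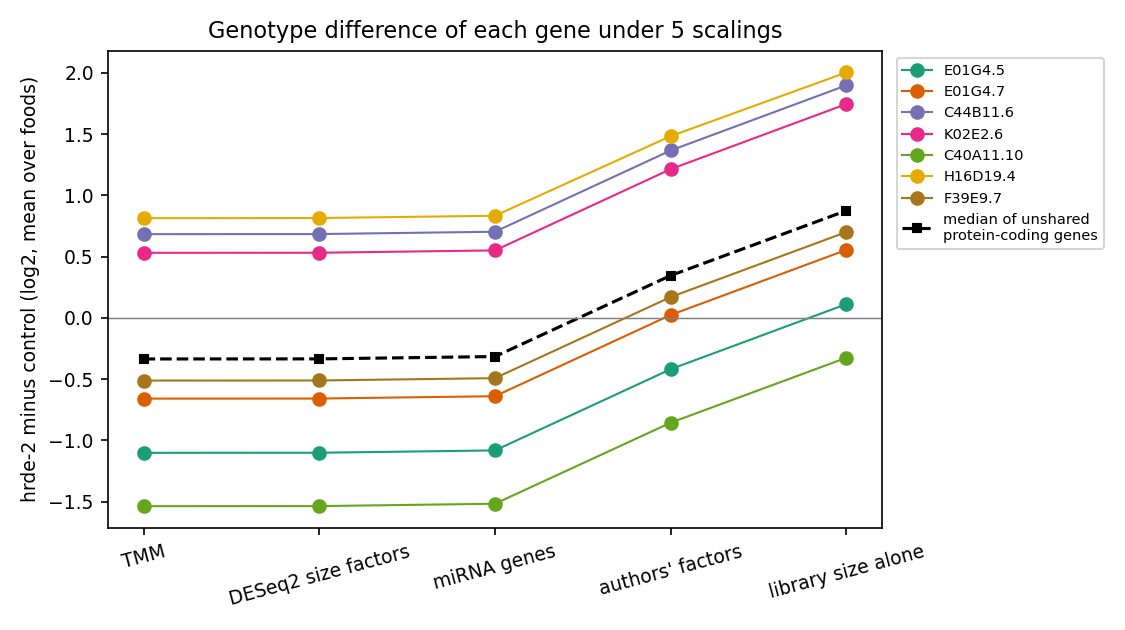
Log2 difference of each gene, hrde-2 minus control averaged over both foods, under 5 ways of scaling the columns; the dashed line is the median of 1149 unshared protein-coding genes. All 7 genes shift together, from −1.54 to 0.81 under TMM to −0.33 to 2.00 under library size alone.

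Each food gave the genotype difference of its own, from columns that the other food did not use. For C40A11.10 the ratio of hrde-2 to control was 0.305 (0.245 to 0.380) on L4440 food and 0.386 (0.290 to 0.510) with oma-1 dsRNA. For E01G4.5 it was 0.481 (0.421 to 0.550) and 0.451 (0.381 to 0.532), and for E01G4.7 0.689 (0.616 to 0.771) and 0.581 (0.510 to 0.663). F39E9.7 had 0.677 (0.561 to 0.820) and 0.725 (0.568 to 0.922). On the TMM scale all 4 ratios were below 1 on both foods, and that of C40A11.10 stayed below 1 under every scaling and filter run. The other 3 genes turned with the scale. F39E9.7 stood above 0 on both foods with the authors' factors (log2 differences 0.24 and 0.10) and with gene-assigned reads alone (0.84 and 0.56). E01G4.7 stood at 0.86 and 0.25 with gene-assigned reads alone, and at 0.27 on L4440 and −0.22 on oma-1 dsRNA with the authors' factors. With that filter the scale gave 0.36 and 0.38 at F39E9.7 and 0.39 and 0.07 at E01G4.7. E01G4.5 turned on L4440 only, to 0.34 with gene-assigned reads alone.

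C44B11.6 had a ratio of 1.96 (1.81 to 2.12) on L4440 food and 1.32 (1.22 to 1.42) with oma-1 dsRNA. K02E2.6 followed with 1.71 (1.56 to 1.89) and 1.22 (1.10 to 1.35). The ratios of H16D19.4, 1.46 (0.820 to 2.78) and 2.16 (1.11 to 4.43), had wide intervals, and that on L4440 included 1. These 3 genes were above 1 on both foods under every scaling and filter run, and on the TMM scale the 2 well covered ones were further from 1 on L4440.

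Of the 6 genes at 5 CPM or more in the higher column, 2 were at least 2-fold lower in hrde-2/L4440, where 29.5% of all features compared were, and 0 at least 2-fold higher, against 13.1%. On oma-1 dsRNA the counts were again 2 and 0, against 27.8 and 13.8%. The members' share was thus near that of all features. The median log2 difference over the 7 genes was −0.54 (L4440) and −0.46 (oma-1 dsRNA), beside −0.47 and −0.39 over all features at that level and 0.03 and 0.06 over all features tested.

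**Figure D4:**
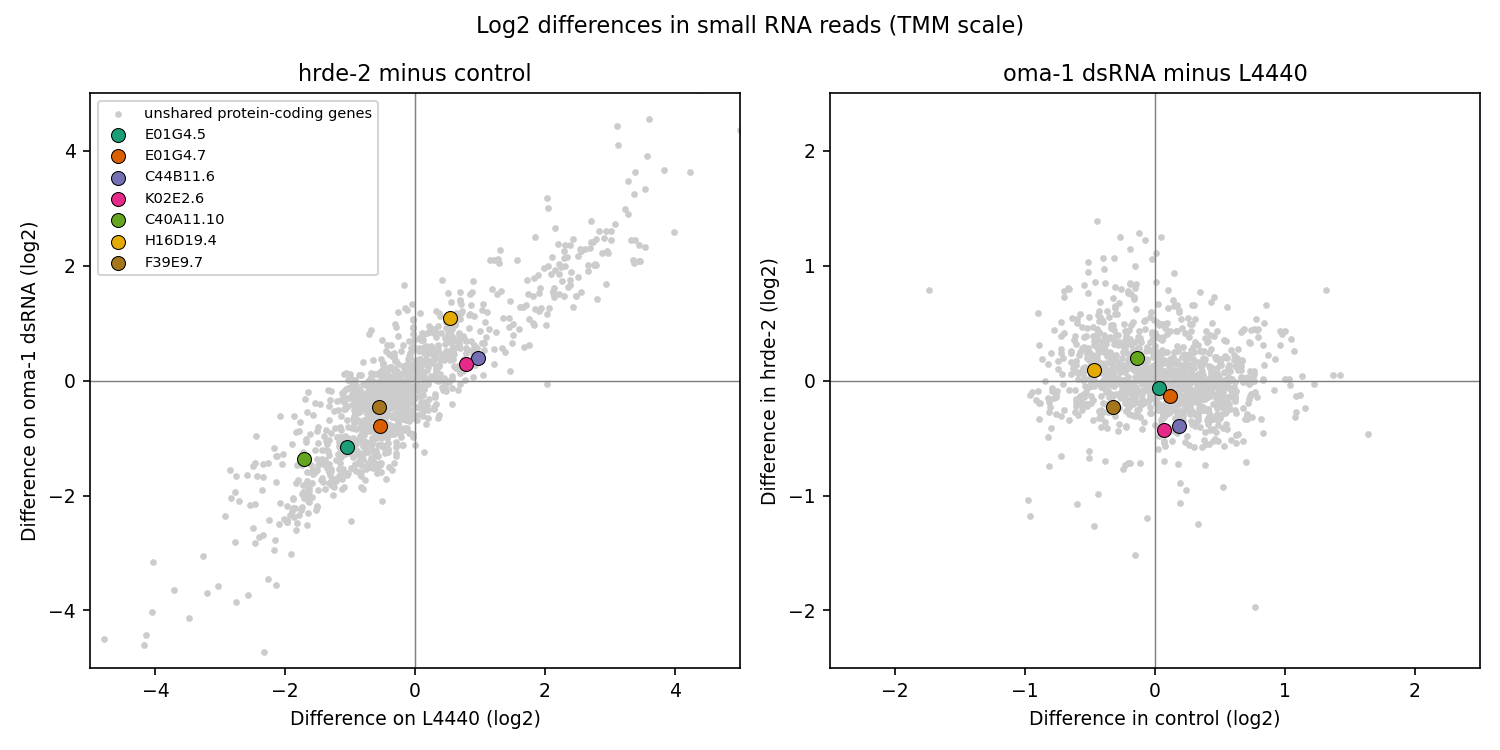
Log2 differences on the TMM scale, the genotype difference on each food (left) and the dsRNA difference in each genotype (right); colours mark the 7 genes and grey points 1149 unshared protein-coding genes, of which 11 lie outside the left axes and 2 outside the right. On the left, 4 genes are below 0 and 3 above 0 on both foods; on the right all 7 lie within 0.5 of 0.

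Because the scaling moves all genes of a column alike, the genes were also set against each other within each column, where no scaling enters. C44B11.6 had 2.14 reads (1.87 to 2.44) for each read of E01G4.5 in control/L4440 and 2.38 (2.14 to 2.65) in control/oma-1. In hrde-2 this rose to 8.72 (8.04 to 9.47) on L4440 food and 6.94 (5.99 to 8.08) with oma-1 dsRNA. K02E2.6 had 1.46 and 1.497 reads for each read of E01G4.5 in control, and 5.21 and 4.04 in hrde-2. The ratio to E01G4.5 was thus 4.08 times as high in hrde-2 for C44B11.6 and 3.57 times for K02E2.6 on L4440, and 2.92 and 2.70 times on oma-1 dsRNA. These factors depend on the gene taken as reference, and E01G4.5 was itself called lower. Relative to E01G4.7, the ratio of C44B11.6 was 2.85 times as high in hrde-2 on L4440 and 2.26 times on oma-1 dsRNA, and that of K02E2.6 was 2.49 and 2.09 times as high. Relative to the barely covered H16D19.4, the factor for C44B11.6 was 1.35 on L4440 (log2 0.43, counting standard error 0.421) and 0.608 on oma-1 dsRNA (log2 −0.72, 0.473), so that these 2 genes could not be separated.

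Within the tandem pair the ratio changed less than that of C44B11.6 or K02E2.6 to E01G4.5. E01G4.7 had 1.28 (1.11 to 1.48) and 1.35 (1.20 to 1.53) reads for each read of E01G4.5 in control, and 1.83 (1.66 to 2.02) and 1.75 (1.47 to 2.08) in hrde-2. C40A11.10 had 0.455 (0.373 to 0.553) and 0.404 (0.340 to 0.479) in control, and 0.289 (0.244 to 0.340) and 0.346 (0.261 to 0.456) in hrde-2. For both E01G4.7 and C40A11.10 the intervals did not overlap between genotypes on L4440 and did on oma-1 dsRNA. The ratio of E01G4.7 to E01G4.5 was 1.43 times as high in hrde-2 on L4440 and 1.29 times on oma-1 dsRNA. Some pairs that are not neighbours, picked by their values, had factors nearer to 1. The factors were 1.14 and 1.08 for C44B11.6 to K02E2.6, and 1.02 and 0.802 for E01G4.7 to F39E9.7. On oma-1 dsRNA the log2 factor of E01G4.7 to F39E9.7 was −0.32 (counting standard error 0.197). That of E01G4.7 to E01G4.5 was 0.37 (0.154), so the sizes of these 2 factors could not be separated.

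The make-up of the reads over the 7 genes shifted accordingly. C44B11.6 held 31.3% (Wilson interval 29.4 to 33.2) and 33.9% (32.3 to 35.5) of them in control, and 48.9% (48.0 to 49.8) and 46.9% (45.1 to 48.7) in hrde-2. E01G4.5 held 14.6 and 14.2% in control, and 5.61 and 6.76% in hrde-2. C40A11.10 went from 6.66 and 5.76% to 1.62 and 2.34%. C44B11.6 and K02E2.6 together took 52.7 and 55.2% in control, and 78.2 and 74.2% in hrde-2. Without C44B11.6, K02E2.6 took 31.1, 32.2, 57.2 and 51.5% of the remaining reads in the 4 columns.

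**Figure D5:**
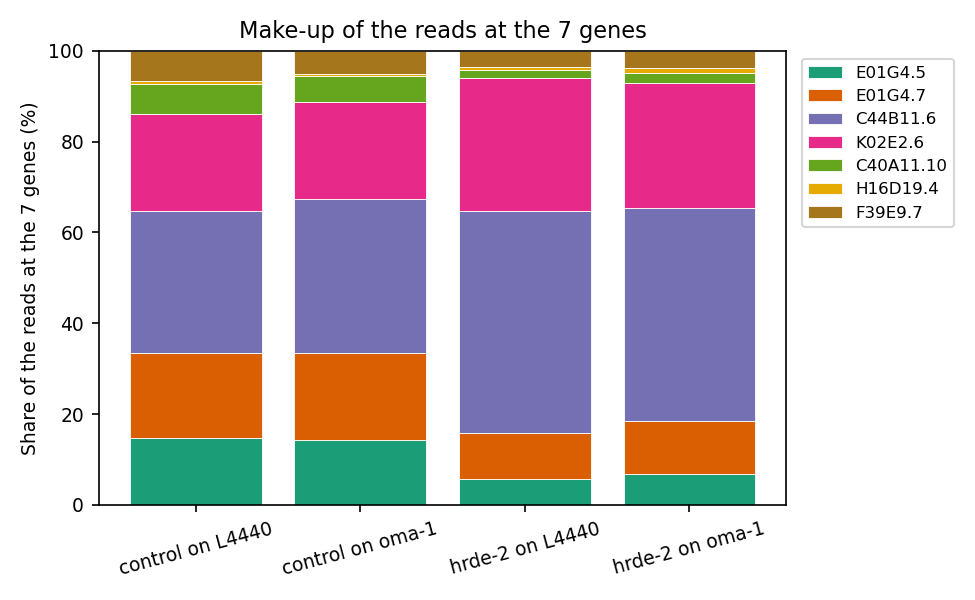
Share of each gene, in percent, of the reads at the 7 genes in each of the 4 columns. C44B11.6 and K02E2.6 together make up 52.7 and 55.2% in the control columns but 78.2 and 74.2% in both mutant columns.

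Summed over the 7 genes the level was 139 CPM (134 to 145) in control/L4440, 146 (141 to 151) in control/oma-1, 175 (171.5 to 178) in hrde-2/L4440 and 139 (134 to 144) in hrde-2/oma-1. The ratio of hrde-2 to control was 1.25 (1.20 to 1.31) on L4440 food and 0.9498 (0.904 to 0.998) with oma-1 dsRNA. This sum hides the members that went opposite ways, since C44B11.6 alone held over 30% of it in each column. Without C44B11.6 the log2 difference of the sum was −0.10 on L4440 and −0.39 on oma-1 dsRNA, against 0.33 and −0.07 with it.

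The second comparison asks whether feeding oma-1 dsRNA moved the small RNAs of these genes. None of the 7 passed the test averaged over genotypes, in which 0.178% of all features did (0.098% higher and 0.0796% lower). The largest difference was that of F39E9.7 at −0.28, and the other 6 lay between −0.19 and 0.03. All 7 had an adjusted p of 0.9996 with edgeR, none had an unadjusted p under 0.05, and DESeq2 called 0 of them.

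In control animals the ratio of oma-1 dsRNA to L4440 was 1.14 (1.03 to 1.25) at C44B11.6, 1.08 (0.956 to 1.23) at E01G4.7, 1.05 (0.931 to 1.18) at K02E2.6 and 1.02 (0.886 to 1.18) at E01G4.5. It was 0.907 (0.730 to 1.13) at C40A11.10, 0.798 (0.638 to 0.999) at F39E9.7 and 0.718 (0.317 to 1.63) at H16D19.4. Only at C44B11.6 and, barely, at F39E9.7 did the counting interval leave out 1. How many of all features did so was not counted. Of the 6 genes compared, 0 were at least 2-fold higher or lower, against 0.647 and 0.299% of all features.

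In hrde-2 mutants K02E2.6 stood at a ratio of 0.744 (0.688 to 0.803) and C44B11.6 at 0.763 (0.719 to 0.809) on oma-1 dsRNA. The other ratios were 0.855 (0.691 to 1.05) at F39E9.7, 0.913 (0.809 to 1.03) at E01G4.7, 0.958 (0.815 to 1.12) at E01G4.5, 1.07 (0.674 to 1.65) at H16D19.4 and 1.15 (0.861 to 1.52) at C40A11.10. Of the 5 genes compared there, 0 were at least 2-fold higher or lower, against 3.78 and 1.08% of all features. The 2 genes with the most reads, and so the narrowest counting intervals, were the 2 whose intervals left out 1. This too was not counted over all features.

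Set against each other, the dsRNA differences of the 2 genotypes were further apart for C44B11.6 and K02E2.6 than for the other genes with 5 CPM or more. The value in hrde-2 minus that in control was −0.58 (counting standard error 0.0811) at C44B11.6 and −0.49 (0.102) at K02E2.6. It was −0.24 (0.125) at E01G4.7, −0.09 (0.155) at E01G4.5, 0.10 (0.220) at F39E9.7 and 0.34 (0.255) at C40A11.10. No gene reached a 2-fold difference, which 9.87% of all features did upward and 3.07% downward, and the values of C44B11.6 and K02E2.6 lay inside the central 95% of unshared protein-coding genes, −1.08 to 1.12. With 1 column per group this difference could not be tested.

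Within a column, the ratio of C44B11.6 to E01G4.5 reads on oma-1 dsRNA was 1.11 times that on L4440 in control and 0.796 times that in hrde-2. For K02E2.6 the same values were 1.02 and 0.776. None of these values depends on the scaling. On the log2 scale the control values were 0.15 (counting standard error 0.124) and 0.03 (0.133). Those in hrde-2 were −0.33 (0.123) and −0.37 (0.128). With E01G4.7 as the reference, the ratios were 1.05 and 0.835 for C44B11.6, and 0.968 and 0.814 for K02E2.6.

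Protein-coding genes next to the 7 loci were counted as well. Of the 36 protein-coding genes that are nearest, 3 on each side of each locus, 5 reached 5 CPM in any column. Of 18888 unshared protein-coding genes 1149 did. K02E2.11, 1279 bases from K02E2.6, had 274, 440, 353 and 126 reads and fell by 1.70 on the log2 scale in hrde-2 (adjusted p = 1.57e-06 with edgeR), while its neighbour K02E2.6 stood at 0.53. The tubulin gene mec-12, 13914 bases from C44B11.6, had 7, 17, 278 and 132 reads and rose by 3.12 (adjusted p = 3.81e-20 with edgeR). It passed 5 CPM only in hrde-2/oma-1, at 6.05, and stood at 0.427, 0.746 and 4.17 CPM in the other columns. E01G4.3, 2799 bases from E01G4.5, had 187, 326, 671 and 215 reads and a difference of −0.36, and it is marked as sharing reads. Near H16D19.4, atp-1, a gene of mitochondrial ATP synthase, stood at 0.01 and T26E3.7 at −0.51. E01G4.3, atp-1 and T26E3.7 did not pass, with adjusted p-values of 0.463, 0.992 and 0.397. A further 3 neighbours under 5 CPM in every column were called, and they are named after their values had been seen. C40A11.6, 6963 bases from C40A11.10, had 49, 95, 18 and 6 reads and fell by 3.62 (adjusted p = 7.29e-26 with edgeR). On the other side of C40A11.10, sdz-28 had 21, 22, 36 and 12 reads and fell by 1.0098 (adjusted p = 0.0221 with edgeR). Near F39E9.7, btb-18 had 0, 3, 20 and 9 reads and was called higher (adjusted p = 0.0446 with edgeR). These calls of neighbours are on the TMM scale, on which 18.7% of all features were called, 9.7% lower and 8.95% higher. They are therefore not read as a trait of the surroundings of these loci.

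The profile over the 4 columns that is the median of the 7 genes was closest to those of MTCE.35, F40A3.6, hpo-34, rps-26 and his-46 among 212 unshared protein-coding genes at 20 CPM or more. Their distances, on centred log2 CPM, were 0.131, 0.209, 0.245, 0.272 and 0.276. MTCE.35 is a mitochondrially encoded gene, rps-26 encodes a ribosomal protein and his-46 a histone. Of the members, F39E9.7 was nearest to that median at 0.126 and C44B11.6 farthest at 1.13, so the median describes few of the 7 genes.

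Small RNAs at the genes of the pathway's own machinery were counted in the same columns. Reads there are small RNAs against these mRNAs, not the mRNAs themselves. Among 12 genes that make 26G RNAs, 1 was called lower in hrde-2 and 0 higher, with a median log2 difference of −0.34. The median was 0.03 over all 16329 features tested and −0.42 over the 2279 of them at 5 CPM or more in any column. The 1 gene was rde-4, which encodes a dsRNA-binding partner of Dicer, with 83, 108, 197 and 48 reads and a difference of −0.94 (adjusted p = 0.00316 with edgeR). The gene ergo-1 itself had 84, 86, 212 and 84 reads and stood at −0.33 (adjusted p = 0.382 with edgeR). The polymerase gene rrf-3 had 53, 68, 128 and 52 reads and stood at −0.54 (adjusted p = 0.117 with edgeR). Most reads of this list fell on eri-6, a helicase gene, with 1087, 1791, 3865 and 1209.

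Among 16 genes of 22G amplification, 1 was called lower and 0 higher, with a median of −0.03. That gene was nyn-2, which encodes a nuclease-domain protein, with 32, 50, 85 and 21 reads and a difference of −0.89 (adjusted p = 0.0179 with edgeR). Its highest level was 2.19 CPM, under the 5 CPM used for comparing single columns. Of the 4 NRDE genes, nrde-1 was called lower at −0.93, with 64, 128, 171 and 51 reads (adjusted p = 0.00325 with edgeR). The Argonaute gene nrde-3 had 35, 52, 90 and 42 reads and stood at −0.45 (adjusted p = 0.247 with edgeR).

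Among 8 further Argonaute genes, 1 was called lower and 0 higher, with a median of 0.10. It was wago-1, with 149, 151, 288 and 102 reads and a difference of −0.79 (adjusted p = 0.0230 with edgeR). The 2 Argonaute genes of the sperm 26G branch, alg-3 and alg-4, were not called, at 0.63 and −0.15. In total 4 of 42 machinery genes were called lower and 0 higher, against 9.7 and 8.95% of all features, and 0 of the 42 were called for the dsRNA. The 4 called genes all lay under a 2-fold difference and were named after their values had been seen. Most of the 42 genes stayed under 5 CPM in every column. All calls of machinery genes given here are on the TMM scale. With the authors' factors the median of 1149 unshared protein-coding genes moved from −0.34 to 0.35. Calls of differences this small may therefore not hold under other scalings.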

How the data were processed

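Per the labels' protocols, a mirVana kit enriched small RNAs, and cloning did not need a 5′ monophosphate; reads per gene were counted with HTSeq 0.6.1, per the submitters' processing notes. The aligner, build, strand setting, treatment of reads with several matches and merging of the 3 samples of each group are not stated in the labels. The authors deposited raw read counts, and beside them a normalized signal in which the authors divided the counts by 1 (control/L4440), 1.34 (control/oma-1), 2.33 (hrde-2/L4440) and 0.87 (hrde-2/oma-1). Reads assigned to no single gene (59.9 to 65.3% of those listed) were left out.

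Of 46726 identifiers 46364 matched the WBcel235 annotation, from which positions and lengths were taken. filterByExpr of edgeR 4.0.16 (minimum count 10, total 15) kept 16329 features, all 7 members among them. An additive fit of genotype and dsRNA over the 4 columns (glmQLFit, robust, and glmQLFTest, checked on simulated data) was adjusted over all of these features, and DESeq2 1.42.0 was an alternative. The simulated data took the TMM scale and the fitted spread as true, so that check cannot judge the scaling or the spread between replicates. Log2 differences used a prior count of 0.5, averaged effects are means of 2 such differences, single ratios carry exact conditional binomial (Clopper-Pearson) intervals, and shares Wilson intervals. A gene counts as sharing reads where its span overlaps a structural RNA, or where another gene has reads within 5% or 15 in all 4 columns, at 1000 reads or more. Named are the 7 genes, machinery genes called and at least 2-fold different (0 met this, so those called are given), neighbours at 5 CPM or more, and the 5 nearest profiles at 20 CPM or more (0.5 CPM added). Members, lists and rules were chosen with earlier results of these data known. Sequences of these genes were not analysed here.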

Additional observations from a re-analysis of the deposited data

Results flagged for a closer look

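At C44B11.6 the difference between the foods pointed in opposite directions in the 2 genotypes on the TMM scale. Relative to L4440, its level on oma-1 dsRNA was 1.14 times as high in control (1.03 to 1.25) and 0.763 times as high in hrde-2 (0.719 to 0.809), so that the counting intervals lay on opposite sides of 1. The difference between the genotypes was not tested, since each group has 1 column. It was −0.58 on the log2 scale under TMM and lay between −0.95 and −0.58 under the scalings and filters used. The opposite directions were lost with the filter of 10 CPM or more in 3 or more columns, where the log2 difference in control was −0.01; it lay between 0.17 and 0.26 under the other settings.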

How the results depend on the processing

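No paired analysis was possible because each group has 1 pooled column, which carries no replicate number; for the same reason no replicate could be left out. Sharing of short exonic sequences between genes was not run, and leaving out F39E9.7, whose span holds a structural RNA, was added after seeing the data in its place. DESeq2 size factors, miRNA factors, TMM on unshared protein-coding genes and no filter changed no member's call; a prior count of 2 enters the log2 differences but not the test.

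With library size alone the median log2 difference of the members between genotypes was 0.86 on L4440 and 0.56 on oma-1 dsRNA, the dsRNA median in hrde-2 −0.46 and the median difference between genotypes in the dsRNA response −0.46. The summed reads then gave 1.73, 0.96 and −0.66 for the first 3. With the authors' factors the first 3 medians were 0.27, 0.10 and −0.32, and the sums 1.13, 0.49 and −0.52. With the strict filter (10 CPM or more in 3 or more columns), the scale of hrde-2/L4440 was 2.15, and at that scale the medians over all 7 genes were 0.39, 0.38 and −0.40, the sums 1.25, 0.77 and −0.60, and the sum in control −0.13. The filter left C40A11.10, H16D19.4 and F39E9.7 out of the test; over the 4 genes it kept, added after seeing the data, the medians were 1.04, 0.60 and −0.53 and that of the difference between genotypes −0.45, and the sums 1.38, 0.84 and −0.62 and −0.081 in control. Without C44B11.6 the sums between genotypes were −0.10 and −0.39.

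Members called higher in hrde-2 numbered 3 with library size alone, 3 with the authors' factors and 2 with the strict filter, and members called lower 0, 1 and 0. E01G4.5 turned to 0.34 on L4440 and to 0.11 over both foods with library size alone. Over all features, those called higher and lower between genotypes numbered 10251 and 216 with library size alone, 4764 and 477 with the authors' factors, 165 and 68 with the strict filter and 404 and 662 with DESeq2, against 1462 and 1584. These are out of 16329 features, or out of 878 with the strict filter. For the dsRNA, 16 were called higher and 13 lower; there were 9 and 6 with library size alone, 10 higher with the authors' factors, 8 lower with miRNA factors, 0 and 0 with the strict filter, and 5 and 0 with DESeq2. Per kilobase, the order of K02E2.6 and E01G4.7, which lie within each other's intervals in control, changed in control/oma-1 with the longest transcript as length. At 5 CPM a column held 81.9 to 334 reads, which limits what can be said of H16D19.4.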
